A study of Mus musculus with 42 samples.

Results

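LEF1 peaks were compared with β-catenin peaks in wild-type (WT) cells given CHIR99021 (CHIR), an inhibitor of the kinase GSK3, by taking the 3 LEF1 and the 3 β-catenin ChIP–seq peak lists of that condition, 6 of the 42 samples of the series, and cutting each list at its 1000, 5000 and 20000 best peaks by −log10 q. The mouse embryonic stem cells were of the HM1 TetON line, of 129 background, and were grown in N2B27 medium with bFGF and LGK974, which blocks WNT secretion, for 2 days and with CHIR added until day 3, when they were fixed at 72 h. At this stage such cultures are caudal epiblast-like cells (CEpiLCs), the progenitors from which spinal cord and paraxial mesoderm arise. WT SOX2 lists with CHIR (3) and the LEF1 and β-catenin lists of 2 mutants under the same treatment, the Cdx1, Cdx2 and Cdx4 triple mutant (CdxKO) and the T/Bra mutant (T/BraKO), 6 each, served for comparison. All lines were derived from the same parental line, and the 3 libraries of a group came from separate experiments. The question was how far LEF1 sites account for β-catenin sites by rank, by the distance between summits and by target genes.

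β-catenin is the transcriptional effector of canonical WNT signalling. It carries no DNA-binding domain of its own and is brought to the genome mainly by the HMG-box proteins TCF7, TCF7L1, TCF7L2 and LEF1, which recognise the same core sequence. Without β-catenin these factors recruit TLE co-repressors, and stabilised β-catenin, as under GSK3 inhibition, turns bound genes on. LEF1 and TCF7 are themselves WNT targets in the primitive streak and tailbud, where WNT signalling maintains the caudal progenitors. A β-catenin site without LEF1 can therefore hold another family member, and ChIP–seq of LEF1 alone does not separate these cases.

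Of the 10 regions with the best β-catenin ranks among those called in all 6 lists, 8 carried the TCF/LEF core. The region at Sp5 lay 15 bp from the gene start, and the other 9 lay between 4862 and 143771 bp from the nearest start. The following windows of 121 bp (GRCm38, plus strand, 5′ to 3′) are centred on the best β-catenin summit of 5 of these 10 regions and are printed to show the letters under the summit. Capitals mark CTTTGAA or CTTTGAT, the TCF/LEF core on either strand. The Foxb1 and Dmgdh windows each held 2 matches, and the Cited2 window is shown because no match lay within 100 bp of its summit.
Foxb1, chr9:69668834-69668954: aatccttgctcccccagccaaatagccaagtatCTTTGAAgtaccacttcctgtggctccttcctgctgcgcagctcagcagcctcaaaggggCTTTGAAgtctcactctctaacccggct
2510009E07Rik, chr16:21702026-21702146: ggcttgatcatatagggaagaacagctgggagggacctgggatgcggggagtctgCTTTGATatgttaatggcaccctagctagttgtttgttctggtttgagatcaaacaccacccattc
Dmgdh, chr13:93687371-93687491: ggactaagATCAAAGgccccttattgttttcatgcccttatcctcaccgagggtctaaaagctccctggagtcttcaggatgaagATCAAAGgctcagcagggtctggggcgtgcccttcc
Tmem176a, chr6:48866723-48866843: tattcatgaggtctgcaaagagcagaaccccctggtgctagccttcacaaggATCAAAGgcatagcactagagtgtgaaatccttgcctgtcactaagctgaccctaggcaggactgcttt
Cited2, chr10:17705568-17705688: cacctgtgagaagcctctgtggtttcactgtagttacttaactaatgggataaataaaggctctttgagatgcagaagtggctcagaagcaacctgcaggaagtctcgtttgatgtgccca

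Regions called in all 3 β-catenin lists and in no full LEF1 list numbered 490, of which 28.8% held the core within 100 bp of the summit. The next 3 windows come from the 5 best-ranked of these and are printed because they lack the core, as did 4 of the 5. The exception was Arl2, and the Chrna9 window, in an intron of Chrna9 (a nicotinic receptor subunit), repeated itself with a period of 63 bp.
Chrna9, chr5:65966807-65966927: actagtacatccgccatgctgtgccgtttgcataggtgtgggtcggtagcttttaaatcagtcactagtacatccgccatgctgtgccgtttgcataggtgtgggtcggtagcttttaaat
Lpar4, chrX:106987905-106988025: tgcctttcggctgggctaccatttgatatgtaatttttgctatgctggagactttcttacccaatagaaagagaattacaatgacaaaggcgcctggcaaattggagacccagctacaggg
Mesp1, chr7:79789366-79789486: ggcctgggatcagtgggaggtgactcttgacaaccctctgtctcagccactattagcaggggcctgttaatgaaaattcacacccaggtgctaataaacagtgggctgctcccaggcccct

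The 2 factors differed in how strong their peaks were. At rank 1000 the summit reads implied by the deposited fold enrichment and −log10 p numbered 63, 69 and 74 in the β-catenin libraries and 26, 22 and 17 in the LEF1 libraries. At rank 20000 they numbered 14, 12 and 16 for β-catenin and 16, 13 and 12 for LEF1, so that the lists ended at similar read support. LEF1 replicate 2 stood apart from the other LEF1 libraries among its 100 best peaks, of which 37% held the TCF/LEF core and 42% lay mostly in soft-masked repeats, against 77% and 11% in replicate 1 and 82% and 24% in replicate 3. The part of peak strength and of this library in the overlaps below was not tested beyond the values given with and without it.

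Among the 1000 best peaks, a β-catenin peak overlapped a LEF1 peak less often than not, and the share fell as the lists grew. The mean was 41.4% ± 0.667 (SD over 3 β-catenin libraries) at 1000 peaks, 20.9% ± 0.401 at 5000 and 9.56% ± 0.516 at 20000. Each β-catenin library gave nearly the same value, 41.4%, 40.7% and 42.0% at 1000 peaks, whereas the LEF1 library used made a larger difference (SD over the 3 LEF1 libraries 5.71, 3.54 and 1.70 at the 3 sizes). The 9 library pairs ranged from 34.2% to 48.4% at 1000 peaks, and the 3 lowest were those with LEF1 replicate 2. In the other direction 41.9%, 21.1% and 9.67% of LEF1 peaks overlapped a β-catenin peak.

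A LEF1 list was held better by the β-catenin lists than by the other LEF1 lists. Replicate lists of β-catenin shared 72.7% of their peaks at 1000, 65.1% at 5000 and 34.1% at 20000, and replicate lists of LEF1 only 34.8%, 12.4% and 5.29%. For the 3 WT LEF1 libraries at 1000 peaks the share in β-catenin lists was 42.9%, 35.5% and 47.3%, and the share in the other LEF1 lists 34.6%, 32.7% and 37.1%. The same order held in 3 of 3 WT libraries at each size, with mean differences of 7.12, 8.63 and 4.38 percentage points, and in 9 of 9 LEF1 libraries of the 3 genotypes at each size. The smallest of the 9 differences at 1000 peaks was 0.0333 points, in CdxKO replicate 2. The β-catenin peaks were also wider. In WT their median width at ranks 1–1000 was 613.5 bp against 266 bp for LEF1 (means of 3 libraries). The part of width in these shares, counted at 1 bp of overlap, was not tested.

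Overlap within factors exceeded overlap between them by 12.1, 17.8 and 10.1 percentage points at the 3 sizes (one-sided exact permutation p = 0.1 each, adjusted 0.1, the smallest p that the 10 splits of 6 libraries allow). The size of these differences depended on the number of β-catenin libraries. Without a β-catenin library they fell to between 1.96 and 3.67 points at 1000 peaks (without replicates 3 and 1), and without a LEF1 library they rose to between 19.5 and 23.1 points (without replicates 2 and 3).

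**Figure D1:**
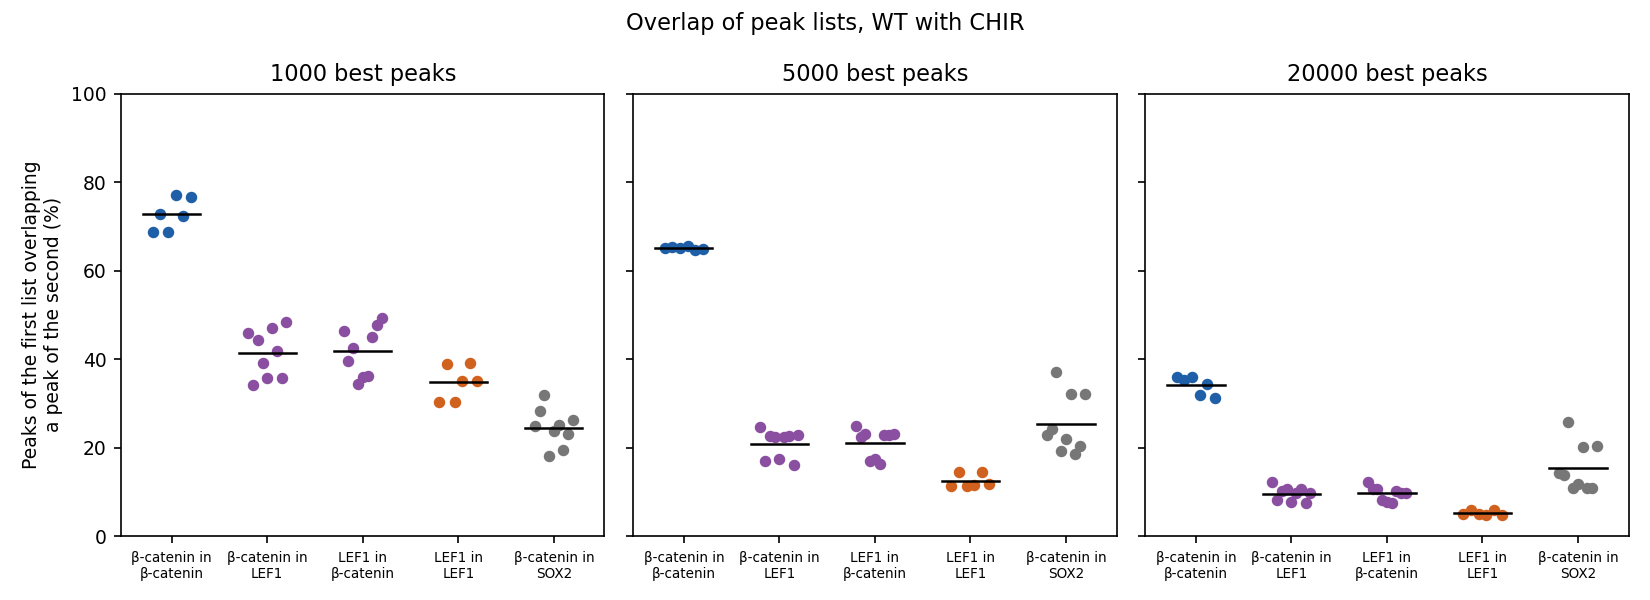
Share of the peaks of a list (%) that overlap a peak of a second list of the same length by at least 1 bp, for WT libraries with CHIR, at 3 list lengths. Each point is a pair of libraries and each bar the mean. At 1000 peaks the β-catenin pairs lie between 68.6% and 77%, the pairs of β-catenin with LEF1 between 34.2% and 48.4%, and the LEF1 pairs between 30.3% and 39%.

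SOX2, the pluripotency factor profiled in the same cells, gave a scale for these shares. At 1000 peaks LEF1 lists held more of the β-catenin peaks than SOX2 lists did, 41.4% against 24.5%, and the ranges over library pairs (34.2% to 48.4% and 18% to 31.8%) did not overlap. At 20000 peaks the order turned, 9.56% against 15.4%, with SOX2 replicate 3 well above the other SOX2 libraries. The differences were 16.9, −4.54 and −5.81 percentage points at the 3 sizes (two-sided exact permutation p = 0.1, 0.6 and 0.1, adjusted 0.15, 0.6 and 0.15), and 3 against 3 libraries cannot go below 0.1. Without SOX2 replicate 3 the last 2 were −0.348 and −2.48 points, and without LEF1 replicate 2 the difference at 5000 peaks was −2.50.

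Nearly all of the very strongest β-catenin sites overlapped a LEF1 peak, and most also overlapped a SOX2 peak. Of the β-catenin peaks at ranks 1–100, 96.4% ± 0.694 (SD, n = 3) overlapped a peak among the 20000 best of a LEF1 list, averaged over the 3 LEF1 lists. The share was 76.7% at ranks 101–500, 53.6% at 501–1000, 32.0% at 1001–2000 and 15.2% at 2001–5000. It ended at 5.46% for ranks 5001–10000 and 1.92% for ranks 10001–20000. SOX2 lists held 80.4%, 63.0%, 51.2%, 41.7%, 28.2%, 13.6% and 5.45% over these ranks. That was less than LEF1 lists held up to rank 1000 and more from rank 1001 on.

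Over the same ranks the other β-catenin lists held 100%, 100.0%, 99.6%, 95.8%, 74.2%, 31.6% and 10.6% of the peaks. The LEF1 share thus fell at ranks where β-catenin peaks were still found again in nearly every β-catenin replicate. Counting a peak as held when any of the 3 LEF1 lists overlapped it gave 99% at ranks 1–100, 83.3% at 501–1000 and 33.6% at 2001–5000. Ranks 1–1000 exceeded ranks past 10000 by 65.2 points in WT (two-sided exact sign-flip permutation p = 0.25, the smallest for 3 libraries). Over the 9 β-catenin libraries of 3 genotypes it was 64.3 points (two-sided exact sign-flip permutation p = 0.00391, the smallest of 512 sign flips). The difference was positive in 9 of 9, but libraries of a genotype share the same 3 LEF1 lists and are not independent. In WT the share in SOX2 lists also fell, from 58.8% at ranks 1–1000 to 5.45% at ranks 10001–20000. The share in other β-catenin lists fell from 99.8% to 10.6%. The median width of the β-catenin peaks fell as well, from 910.5 bp at ranks 1–100 to 169 bp at ranks 10001–20000, and its part was not tested. The tests therefore show a fall with rank and cannot decide whether it is particular to LEF1.

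The reverse view was alike at the top. Of LEF1 peaks at ranks 1–100, 92.4% ± 10.2 overlapped a β-catenin peak, with 98.3%, 80.7% and 98.3% in replicates 1 to 3. At ranks 101–500 the share was 87.2%, above the 67.7% held by the other LEF1 lists, and at ranks 501–1000 it was 52.7% against 31.6%. By ranks 1001–2000 it was 24.2%, and by 10001–20000 it was 3.74%. The plot of overlap by rank shows that the LEF1 lists lost reproducibility at ranks at which the β-catenin lists still held it.

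**Figure D2:**
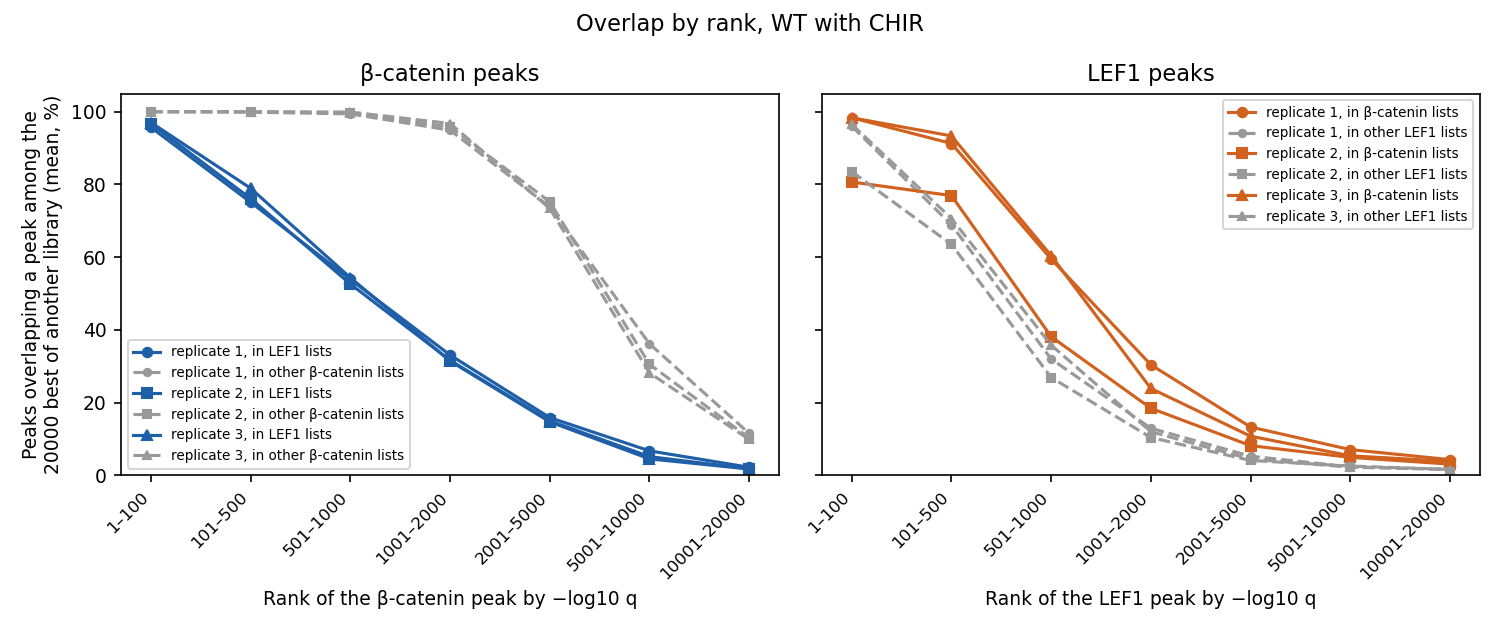
Share of peaks (%) that overlap a peak among the 20000 best of another library, by rank of the peak, for β-catenin peaks (left) and LEF1 peaks (right) of the WT libraries. Solid lines give the mean over the lists of the other factor and dashed lines the mean over the other lists of the same factor, a line per library. β-catenin peaks fall from 96.4% to 1.92% in LEF1 lists, and the solid LEF1 lines run above the dashed ones past rank 100 in all 3 libraries.

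With the full LEF1 lists, which run to between 175430 and 723070 peaks, most strong β-catenin sites had some LEF1 peak. The 1000 best peaks of the 3 β-catenin libraries were held by a full LEF1 list in 88.7%, 89.0% and 91.3% of cases on average, and 98.9% to 99.6% were in at least 1 of the 3. The 1000 best LEF1 peaks were in the full β-catenin lists in 80.9%, 63.4% and 81.4% of cases. Those lists held 40067, 108507 and 469083 peaks, the last of them more than the shortest LEF1 list. Lists of such length take in weak peaks, so the equal-length lists carry the comparison.

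Where the factors overlapped, their summits lay almost on top of each other. The median distance between β-catenin and LEF1 summits of overlapping peaks was 22.2 bp ± 0.712 (SD, 9 pairs) at 1000 peaks, 27.2 bp ± 1.56 at 5000 and 33.8 bp ± 2.22 at 20000. Between β-catenin replicates it was 15.3, 21.7 and 29.3 bp, and between LEF1 replicates 24.2, 29.5 and 35.3 bp. At each size the distance between factors was thus larger than that between β-catenin libraries and no larger than that between LEF1 libraries.

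Summits within 50 bp of each other made up 82.4%, 74.9% and 65.3% of the overlapping β-catenin and LEF1 peaks. The LEF1 replicates reached 78.7%, 71.4% and 63.4%, the β-catenin replicates 93.4%, 81.9% and 69.3%. Against SOX2 the median distance from a β-catenin summit was 25.1, 32.1 and 43.3 bp at the 3 sizes, with 76.4%, 66.5% and 55.4% within 50 bp. The distances are descriptions and were not tested.

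**Figure D3:**
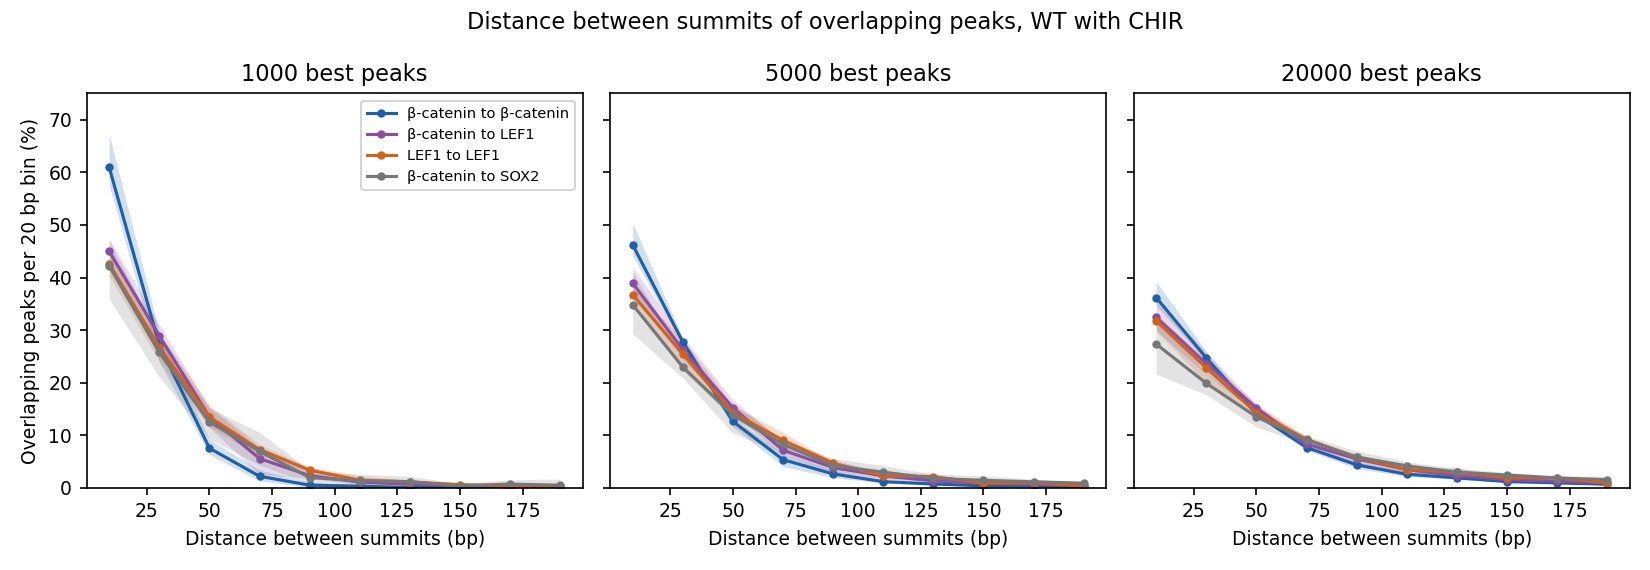
Distribution of the distance between summits of overlapping peaks (bp, bins of 20 bp) for WT libraries at 3 list lengths. Lines are means over library pairs (%) and shading spans the lowest to the highest pair. At 1000 peaks 45.0% of the overlapping β-catenin and LEF1 peaks have summits less than 20 bp apart.

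The TCF/LEF core marked the strong peaks of both factors. At 1000 peaks 59.6%, 62.9% and 64.3% of β-catenin windows and 64.8%, 47.8% and 62.0% of LEF1 windows held CTTTGAA or CTTTGAT within 100 bp of the summit, on either strand. Windows moved by 1000 bp held it in 7.33% of cases for each factor. In peaks with a match the nearest one lay a median of 25.0 bp from the β-catenin summit and 22.5 bp from the LEF1 summit, at 1000 peaks. LEF1 replicate 2 was the low value.

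Further down the lists LEF1 peaks held the core less often than β-catenin peaks. The means were 48.3% for β-catenin and 29.6% for LEF1 at 5000 peaks, and 27.5% and 18.3% at 20000, while moved windows stayed at 8.43% to 8.55%. The WT differences, LEF1 minus β-catenin, were −4.07, −18.8 and −9.18 points (two-sided exact permutation p = 0.7, 0.1 and 0.1, adjusted 0.7, 0.15 and 0.15). Over the 18 libraries of 3 genotypes, with factor labels permuted within genotype, they were −4.74, −18.7 and −10.7 points (exact permutation p = 0.123, 0.00025 and 0.00025, adjusted 0.123, 0.0005 and 0.0005). The sign at 1000 peaks rested on LEF1 replicate 2, without which the WT difference was 1.13 points.

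Promoters showed the opposite order at the top and below. Of the 1000 best peaks 9.07% ± 0.709 (SD, n = 3) of β-catenin and 11.4% ± 2.44 of LEF1 summits lay within 1000 bp of an annotated start site. At 5000 peaks the shares were 12.5% and 8.69%, and at 20000 they were 15.0% and 7.12%. The differences in WT were 2.37, −3.83 and −7.90 points (two-sided exact permutation p = 0.2, 0.1 and 0.1, adjusted 0.2, 0.15 and 0.15). Over 3 genotypes they were 3.31, −2.52 and −7.30 points (exact permutation p = 0.00575, 0.00125 and 0.00025, adjusted 0.0069, 0.00187 and 0.0005).

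**Figure D4:**
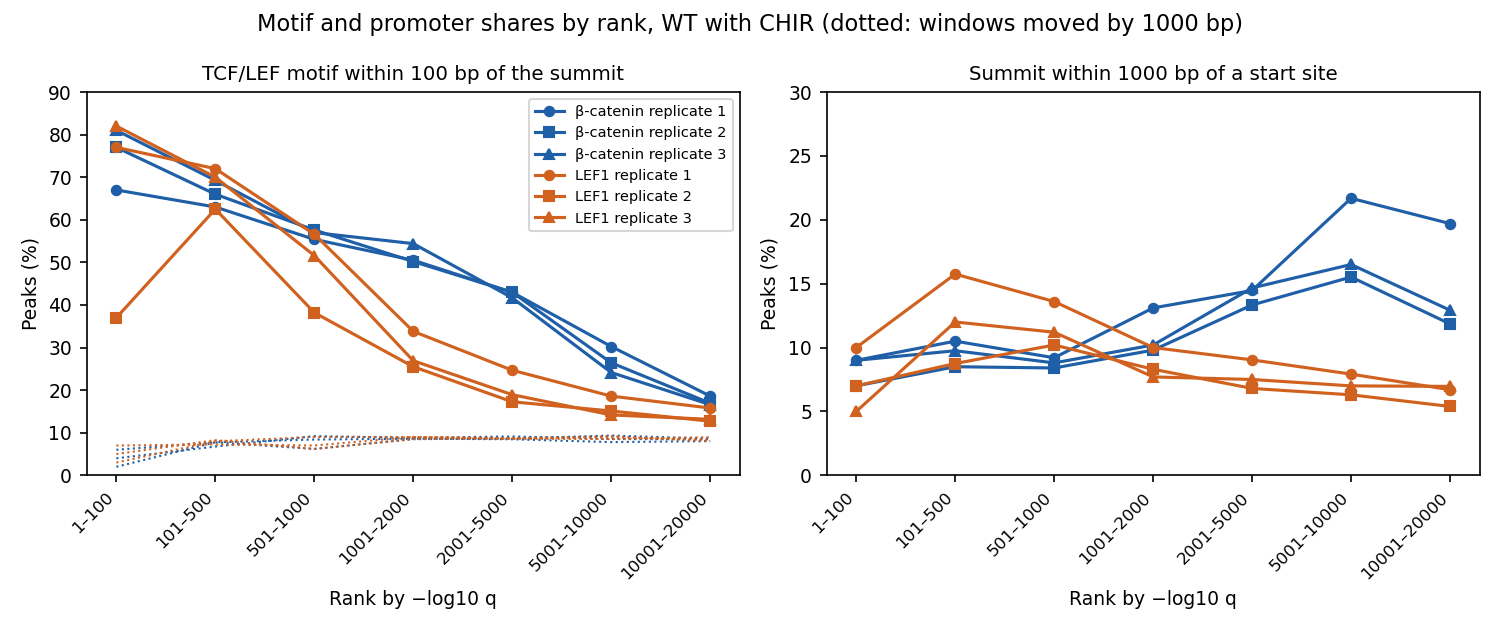
Share of peaks (%) with the TCF/LEF core within 100 bp of the summit (left) and with the summit within 1000 bp of a start site (right), by rank, a line per WT library. Dotted lines give windows moved by 1000 bp. In the left panel LEF1 replicate 2 starts at 37%, and below rank 1000 all 3 LEF1 lines run under the β-catenin lines.

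Within broad ranges of rank, β-catenin peaks with LEF1 held the core more often than those without. Among ranks 1–1000, 69.2% ± 0.459 (SD, n = 3) of the peaks found in 2 or 3 LEF1 lists held it, against 35.6% ± 5.03 of those found in none. At ranks 1001–5000 the shares were 69.4% and 36.1%, and at ranks 5001–20000 they were 64.5% and 18.2%. The share with LEF1 hardly moved over the ranks, while that without LEF1 fell past rank 5000. Windows mostly in soft-masked repeats moved with the split at ranks 1–1000, at 24.9% with LEF1 and 11.5% without. Both the LEF1 share and the core share also fell with rank inside this range, and the part of either was not tested. The same split of LEF1 peaks by β-catenin gave 71.6% against 23.1%, 62.2% against 14.9% and 51.2% against 12.5%.

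The SOX core, CCATTGT or CCTTTGT on either strand, differed between LEF1 peaks with and without β-catenin, at 15.5% against 6.88% for ranks 1–1000. In β-catenin peaks with and without LEF1 it was 14.9% and 18.5%. The CCTTTGT form shares the letters CTTTG with the TCF/LEF core. These are shares of windows, and a match is not a binding site.

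Merged across replicates, the LEF1 sites called in at least 2 of 3 lists were largely a subset of β-catenin sites. Regions called in at least 2 of 3 lists at 20000 peaks numbered 9658 for β-catenin and 1892 for LEF1. A LEF1 region overlapped 1453 of the β-catenin regions (15.0%, 95% Wilson interval 14.3% to 15.8%), and a β-catenin region overlapped 1463 of the LEF1 regions (77.3%, 75.4% to 79.2%). The intervals cover counting error only. The LEF1 total was limited by the agreement of its replicates, and without LEF1 replicate 1 or 3 the β-catenin regions with LEF1 fell to 817 and 822.

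Of 5212 regions called in 3 of 3 β-catenin lists, 579 (11.1%) were in 3 of 3 LEF1 lists and 2521 (48.4%) in none. Of 642 regions called in 3 of 3 LEF1 lists, the same 579 (90.2%) were in 3 of 3 β-catenin lists and 7 in none. Most LEF1 regions were called in 1 list alone, 55404 in number, and 52135 of these (94.1%) were in no β-catenin list. With LEF1 replicate 2 left out, an alternative chosen after seeing the data, regions in both remaining LEF1 lists numbered 1202, of which 934 (77.7%) were in all β-catenin lists and 113 in none. Regions in 3 of 3 β-catenin lists and in no full LEF1 list numbered 490, and those in 3 of 3 LEF1 lists and in no full β-catenin list numbered 1.

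Features of the β-catenin regions changed in step with the number of LEF1 lists. From 3 of 3 LEF1 lists through 2 and 1 to 0, the share with the TCF/LEF core ran 72.5%, 66.3%, 51.9% and 33.8%. The share also called for SOX2 in at least 2 lists ran 59.2%, 35.7%, 28.6% and 22.1%, and the share at promoters 10.1%, 12.0%, 14.4% and 17.7%. The median of the mean β-catenin rank ran from 539 through 2066 and 5243 to 10320, so rank moved with all of these values and its part was not tested.

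LEF1 regions without β-catenin had little SOX2. Of the 309 LEF1 consensus regions in none of the β-catenin lists, 1.94% were SOX2 regions and 33.0% held the TCF/LEF core. Of the 1307 in 3 of 3 β-catenin lists, 46.2% and 70.2% did. The former were also weaker, with a median mean LEF1 rank of 12679 against 7127, and the part of rank was not tested. Within the 579 regions in all 6 lists, the rank of a region agreed better between β-catenin libraries (mean Spearman rho 0.824) than between LEF1 libraries (0.447) or across factors (0.440). These correlations run over regions, which are not replicates, and share the libraries.

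The share of β-catenin target genes in common with LEF1 was lowest at 5000 peaks and highest at 20000, whereas by peak it fell at each step. Over the same sizes the share of all protein-coding genes reached by LEF1 rose from 1.56% to 31.0%. The nearest genes within 50000 bp of the 1000 best peaks numbered 523 to 529 for β-catenin and 547 to 577 for LEF1. Genes found in at least 2 of 3 libraries numbered 501 for β-catenin and 341 for LEF1, and 222 were common, 44.3% of the former and 65.1% of the latter. At 5000 peaks the numbers were 2153, 1388 and 731, and at 20000 they were 6709, 6795 and 3719 of 21911 protein-coding genes. Genes of β-catenin made up 2.29%, 9.83% and 30.6% of all protein-coding genes at the 3 sizes, and those of LEF1 1.56%, 6.33% and 31.0%. The shares in common therefore stood against a background that rose at each step. Common genes at 5000 and 20000 peaks were 34.0% and 55.4% of those of β-catenin. They were 52.7% and 54.7% of those of LEF1, for which the share was highest at 1000 peaks.

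The Jaccard index between gene sets of the factors was 27.3%, 20.7% and 34.1% at the 3 sizes. Between β-catenin libraries it was 58.5%, 54.9% and 45.1%, and between LEF1 libraries 22.8%, 15.6% and 32.8%. Within minus between was 13.3, 14.6 and 4.85 points (one-sided exact permutation p = 0.1 each, adjusted 0.1, the smallest possible). Without β-catenin replicate 3 it was 3.18 points at 1000 peaks, and without LEF1 replicate 3 it was 23.9.

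Lists of genes with known roles were then read by their consensus regions within 50000 bp of the gene start. Of all 21911 protein-coding genes, 35.2% had a β-catenin region, 9.78% a LEF1 region and 8.28% both. β-catenin regions were near most members of every list except the genes of tissues not cultured. LEF1 was near most members of only the WNT feedback, caudal epiblast and Hox lists. The lists were chosen with earlier results of these data known, and no test was made of them.

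WNT feedback and target genes held both factors at 10 of 15 members, and 13 had a β-catenin region. Of their 64 β-catenin regions 18 (28.1%) had LEF1, against 15.0% of all β-catenin regions. The median mean rank of the 64 was 3600 against 8645 for all β-catenin consensus regions, and the part of rank was not tested. Sp5, a zinc-finger WNT target, had the highest β-catenin ranks of the list, 5, 15 and 6, at a region 15 bp from its start, with LEF1 ranks of 75, 577 and 208 and summits 10 bp apart. The region 46146 bp upstream of Notum, whose product removes the lipid of WNT proteins, ranked 7, 26 and 11 for β-catenin and 33, 70 and 169 for LEF1. At these sites β-catenin stood higher in its lists than LEF1 in its own.

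Axin2, a scaffold of the β-catenin destruction complex, had 9 β-catenin regions, 5 of them with LEF1. The best lay 887 bp downstream of its start with β-catenin ranks of 72, 181 and 45 and LEF1 ranks of 354, 348 and 961. Znrf3, a ubiquitin ligase that removes Frizzled receptors, had a region 33043 bp downstream of its start with β-catenin ranks of 198, 409 and 278 and LEF1 ranks of 145, 127 and 182. Nkd1, an antagonist of Dishevelled, had a region 25993 bp upstream with β-catenin ranks of 367, 843 and 385 and LEF1 ranks of 519, 923 and 785.

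At Lef1 and Tcf7 themselves few β-catenin regions had LEF1, but few did anywhere (15.0% of all β-catenin regions), and the counts are small. Lef1 had 7 β-catenin regions, of which the region 25644 bp upstream had LEF1 in all 3 lists (ranks 676, 13816 and 438). The region 4387 bp upstream of Lef1 had higher β-catenin ranks, 201, 708 and 240, and LEF1 in replicate 1 alone. Tcf7 had 4 β-catenin regions and none with a LEF1 consensus region. At the site 360 bp upstream of Tcf7 the β-catenin ranks were 587, 1162 and 961, and LEF1 was called in replicate 1 at rank 399.

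Ccnd1, which encodes cyclin D1, and Dkk1, a secreted WNT antagonist, each had LEF1 in 2 lists at a β-catenin region. Lgr5 and Myc had β-catenin but no LEF1 consensus regions, the LEF1 region near Rnf43 lay apart from its 2 β-catenin regions, and Nkd2 and Apcdd1 had no consensus region of either factor. Sp8 had 2 of its 6 β-catenin regions with LEF1. At 1 of these the summits lay 1179 bp apart within a wide region.

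WNT transducers, the receptors, destruction complex members and nuclear partners of the pathway, had a β-catenin region at 9 of 16 members and LEF1 at 5. The LEF1 share of members was 31.25%, against 9.78% of all protein-coding genes. Of their 29 β-catenin regions 3 (10.3%) had LEF1, against 15.0% of all β-catenin regions. Tle3, a TCF co-repressor, had a site 32904 bp upstream with β-catenin ranks of 13, 74 and 56 and LEF1 ranks of 69, 283 and 969. Tcf7l1, the TCF that mainly represses, had the reverse, with LEF1 ranks of 274, 3 and 213 and β-catenin ranks of 3162, 6091 and 4261 at a region 446 bp downstream of its start that held no core match. Csnk1a1, which encodes the priming kinase CK1α, had LEF1 in 2 lists at a β-catenin region 285 bp upstream of its start, and the LEF1 regions near Gsk3a and Pygo2 overlapped none of β-catenin.

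Caudal epiblast and primitive streak genes had the most LEF1. β-catenin regions lay near 14 of 15 members and LEF1 near 12, and 24 of 58 β-catenin regions (41.4%) had LEF1, against 15.0% of all β-catenin regions. Their β-catenin regions also stood high in the lists, with a median mean rank of 2282 against 8645 for all consensus regions, and the part of rank in the LEF1 share was not tested.

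Cdx1, a homeobox activator of posterior Hox genes, had a region 113 bp upstream of its start with β-catenin ranks of 22, 10 and 21 and LEF1 ranks of 61, 52 and 38. Cdx2 had a region 2835 bp downstream of its start with β-catenin ranks of 162, 253 and 325 and LEF1 ranks of 561, 4256 and 1666, the summits lying 518 bp apart. Cdx4 had 2 weaker β-catenin regions and no LEF1. The Cdx genes therefore differed in whether LEF1 was called.

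Among the ligands, Wnt3a had a region 46714 bp downstream of its start with β-catenin ranks of 910, 146 and 143 and LEF1 ranks of 266, 190 and 371. Wnt8a had 5 β-catenin regions, 3 with LEF1, the best 19157 bp downstream of its start (40, 244 and 50 for β-catenin, 576, 3415 and 264 for LEF1). Wnt3 had 3 β-catenin regions, none of which overlapped its LEF1 region. Nodal, a TGFβ ligand of the early streak, had a region 11780 bp upstream with 2 core matches, β-catenin ranks of 610, 417 and 229 and LEF1 ranks of 78, 363 and 155.

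T, which encodes the T-box factor Brachyury, had 8 β-catenin regions and 4 with LEF1. Its 2 strongest were not among these. The regions 45204 and 228 bp upstream of the start had β-catenin ranks of 153, 88 and 139 and of 315, 282 and 292, and each had LEF1 in replicate 1 alone, at ranks 1328 and 2554. The T region with LEF1 in all 3 lists, 12637 bp upstream, was the reverse, with β-catenin ranks of 7683, 4249 and 13677.

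Evx1, a homeobox gene of the streak, had a site 2059 bp upstream with β-catenin ranks of 169, 215 and 128 and LEF1 ranks of 165, 179 and 239. Nkx1-2, a marker of the caudal lateral epiblast, had a region 16915 bp upstream with LEF1 ranks of 26, 370 and 90 and β-catenin ranks of 86, 195 and 95, with summits 956 bp apart. Fgf8 had 2 of 6 and Mixl1 1 of 2 β-catenin regions with LEF1. Eomes had 5 β-catenin regions and no LEF1 consensus region, Fgf17 had 2 that its LEF1 region did not overlap, and Cyp26a1 had no consensus region of either factor.

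Paraxial mesoderm genes had β-catenin regions near 9 of 10 members and both factors near 2, Msgn1 and Ripply2. That is 22.2% of the members with β-catenin, against 23.5% of all protein-coding genes with β-catenin, and 4 of 21 β-catenin regions (19%) had LEF1, so the shares were near the background. Msgn1, a bHLH factor of presomitic mesoderm, had a region 194 bp upstream of its start with 2 core matches, β-catenin ranks of 1273, 371 and 611 and LEF1 ranks of 3348, 498 and 498. Ripply2, a repressor that sets somite boundaries, had a region 35265 bp upstream with β-catenin ranks of 197, 154 and 319 and LEF1 ranks of 448, 2354 and 241.

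Hes7, a segmentation clock repressor, had the best β-catenin ranks of the mesoderm list, 57, 6 and 75, at a site 2319 bp upstream of its start with a core match. LEF1 was called there in replicate 1 alone, at rank 3998, and in 2 of the full lists. Tbx6, a T-box factor of presomitic mesoderm, had 3 β-catenin regions and none with a LEF1 consensus region. Mesp1 and Mesp2, neighbouring genes for bHLH factors of the early mesoderm and the somites, shared 3 β-catenin regions, of which that with ranks of 1853, 945 and 1225 had no LEF1 peak even in the full lists. Dll1, Meox1 and Rspo3 likewise had β-catenin but no LEF1 consensus regions, and Foxc2 had a LEF1 but no β-catenin consensus region.

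Hox genes all had a β-catenin region within 50000 bp, and 26 of 39 had LEF1. Genes of a cluster share regions, so these came down to 50 separate β-catenin regions, 13 of them (26.0%) with LEF1. Of all β-catenin regions 15.0% had LEF1. The median mean β-catenin rank was 5188 for the Hox regions against 8645 for all consensus regions, and the part of rank was not tested. The strongest Hox region lay 2636 bp upstream of Hoxd1 with β-catenin ranks of 32, 106 and 94 and LEF1 ranks of 49, 75 and 49. A site 200 bp upstream of Hoxb1 had β-catenin ranks of 229, 264 and 329 and LEF1 ranks of 71, 423 and 23. Hoxd8 to Hoxd13 and Hoxc9 to Hoxc13, on the posterior side of their clusters, had no LEF1 region within this distance, nor had Hoxb13 and Hoxc5. Other posterior genes did: Hoxa9, Hoxa10, Hoxa11, Hoxa13 and Hoxb9 had 3, 3, 2, 1 and 2 LEF1 regions.

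Pluripotency and epiblast genes had β-catenin regions near 16 of 19 members (84.2%) and LEF1 near 3 (15.8%), Pou5f1, Klf4 and Klf5. Among all protein-coding genes the shares were 35.2% and 9.78%. Of their 43 β-catenin regions 3 (6.98%) had LEF1, against 15.0% of all β-catenin regions. LEF1 was thus above the background by gene and below it by region. The median mean β-catenin rank of the 43 regions was 9079, close to that of all consensus regions. Pou5f1, which encodes OCT4, had LEF1 in 3 lists 903 bp upstream of its start, at ranks 4006, 1866 and 10561 with β-catenin ranks of 730, 1378 and 628. Klf4 had β-catenin ranks of 333, 664 and 625 at 115 bp upstream of its start and LEF1 ranks of 8398 and 17317 in replicates 1 and 2.

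Lin28a, an RNA-binding regulator of let-7, had β-catenin ranks of 486, 532 and 206 at 46 bp upstream of its start and LEF1 in replicate 2 alone, at rank 4176. Sall4 had 8, Sox2 4 and Nanog 2 β-catenin regions, and none had a LEF1 consensus region. Esrrb, Klf2, Tbx3, Prdm14, Dppa3, Fgf5, Otx2, Utf1 and Zfp42 likewise had no LEF1 consensus region. At 12 of the 43 regions LEF1 was not called even in the full lists.

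Anterior neural genes had β-catenin near 6 of 10 members (60%) and LEF1 near 2 (20%), against 35.2% and 9.78% of all protein-coding genes. Of their 11 β-catenin regions 2 (18.2%) had LEF1, near the 15.0% of all β-catenin regions. At Hesx1, a homeobox repressor of the anterior neural plate, a region 37791 bp upstream of the start had β-catenin ranks of 223, 38 and 44 and LEF1 ranks of 742, 318 and 91. Zic1 had LEF1 in 2 lists at a β-catenin region 20859 bp upstream. Genes of tissues not cultured, such as Alb and Ins1, had β-catenin near 4 of 15 members (26.7%) and LEF1 near none, so a β-catenin region within 50000 bp was frequent at genes with no known role in these cells.

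**Figure D5:**
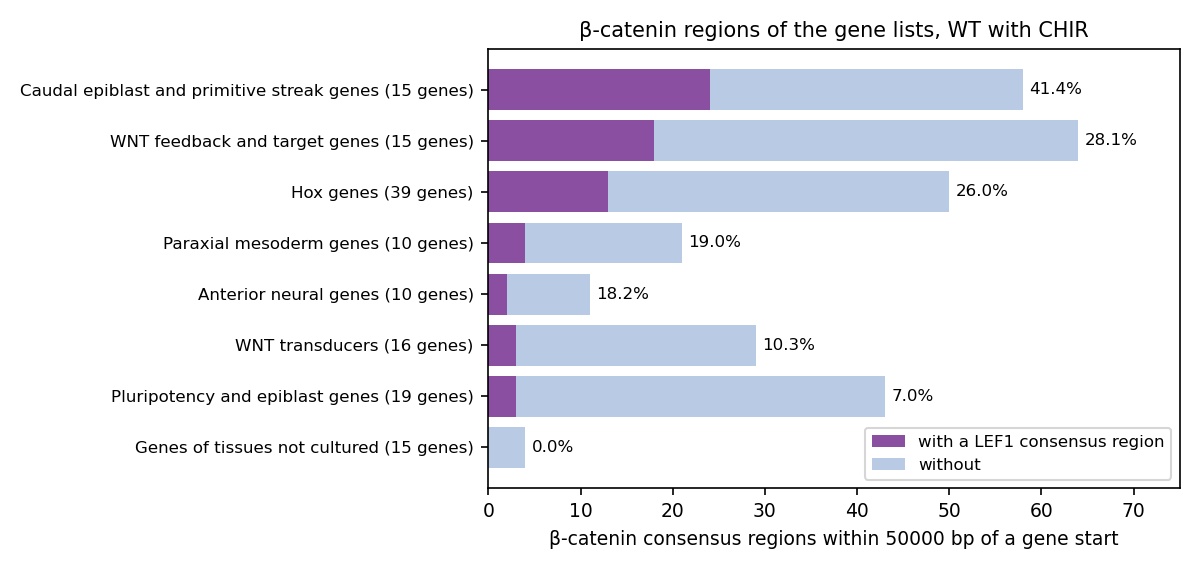
Number of separate β-catenin consensus regions within 50000 bp of a start of the genes of each list, split by overlap with a LEF1 consensus region. The percentages are the shares with LEF1, from 41.4% for caudal epiblast genes to 7.0% for pluripotency genes and 0 of 4 for genes of tissues not cultured, against 15.0% of all β-catenin regions.

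The 10 regions with the best β-catenin ranks among the 579 called in all 6 lists were near Mapkap1, Foxb1, 2510009E07Rik, Lrmda, Cited2, Sp5, Gbx2, Dmgdh, Tmem176a and Zfp703. In 9 of them the summits of the factors lay at most 11 bp apart, and in Lrmda 39 bp apart. Of the 10, 8 held the TCF/LEF core within 100 bp and Cited2 and Gbx2 did not. All 10 were also called for SOX2 in 2 or 3 lists.

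The Foxb1 region (chromosome 9, 69667887 to 69671934, intergenic, 92046 bp downstream of the start of this forkhead gene) ranked 3, 2 and 1 for β-catenin and 1, 12 and 2 for LEF1. Its fold enrichment was 170, 193 and 236 for β-catenin and 103, 75.6 and 59.3 for LEF1. The region in an intron of Mapkap1 (chromosome 2, 34569860 to 34571603) ranked 2, 1 and 2 and 5, 16 and 7. Lower LEF1 than β-catenin enrichment was found in all 10 regions, and fold values of different antibodies do not measure the amount of factor bound.

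The Cited2 region (chromosome 10, 17704787 to 17706258, 17590 bp upstream of this transcriptional co-regulator), printed above without a core match, ranked 6, 7 and 12 for β-catenin and 41, 124 and 61 for LEF1. The Dmgdh region (chromosome 13, 93687038 to 93688155, in an intron) ranked 14, 13 and 10 and 16, 72 and 9. The Tmem176a region (chromosome 6, 48866202 to 48867620) ranked 11, 11 and 16 and 10, 32 and 15, and 79.1% of its window is soft-masked repeat. LEF1 replicate 2 gave the lowest of the 3 LEF1 ranks at each of the 10 regions.

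The 5 best-ranked of the 490 β-catenin regions with no LEF1 peak in any full list were near Chrna9, Arl2, Lpar4, Meis2 and Mesp1. The Chrna9 region (chromosome 5, 65966618 to 65967245) ranked 334, 257 and 501 with a fold enrichment of 43.0, 50.7 and 47.8. The Mesp1 region (chromosome 7, 79789189 to 79789803, intergenic, 4362 bp downstream) had a fold enrichment of 16.0, 26.5 and 29.5. Of the 5, only the Arl2 region held the TCF/LEF core, and the Lpar4 region, an intergenic site 67340 bp from Lpar4, was called for SOX2 in 3 of 3 lists and held the SOX core.

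The only region called in all LEF1 lists and in no full β-catenin list lay in an intron of Cbr3 (chromosome 16, 93686711 to 93686841). It ranked 70, 1406 and 6563, with a fold enrichment of 11.8, 2.41 and 1.87, and its window opened with a run of 25 bases of C. It held no core match.

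In the mutants the same comparison gave shares of β-catenin peaks with LEF1 of 44.6%, 26.2% and 12.4% in CdxKO and 34.3%, 18.2% and 9.17% in T/BraKO at the 3 sizes. The difference of these values from WT was not tested.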

How the data were processed

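Peak lists of LEF1, β-catenin and SOX2 ChIP–seq libraries were analysed. Cells had been fixed with DSG and PFA, and the single-end reads were aligned by the authors to mm10 (GRCm38) with BWA in an nf-core pipeline. The deposited lists hold, for each MACS narrow peak, the fold enrichment at the summit as a ratio over background, its −log10 p-value and −log10 q-value, and the summit position. The sources used here do not state which input was the control, and the submitters' processing notes name MACS2. The paper's consensus rule (at least 2 of 3 replicates) and motif window (100 bp to each side) were followed.

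Lists were cut at the 1000, 5000 and 20000 best peaks by −log10 q, ties being broken by −log10 p, and peaks sharing at least 1 bp were counted as overlapping. At rank 20000 up to 7841 peaks of a list shared the value of −log10 q. Target genes were the nearest GENCODE M21 start site at most 50000 bp from the summit, and promoters lay within 1000 bp of one. The TCF/LEF core is CTTTGAA or CTTTGAT, of which GRCm38 holds 1321876 copies. Summit reads were recovered from fold and −log10 p in 99.7% to 100.0% of 4000 peaks per library (tolerance 0.001), and total depth is unknown. Intervals cover counting error only.

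Libraries were the replicates of the tests, which were exact permutation tests with Benjamini-Hochberg adjustment, first tested on simulated lists (Python 3.11.15, numpy 2.4.6, pandas 2.3.3, scipy 1.17.1). With 3 against 3 libraries p cannot go below 0.1. Alternatives were other overlap, ranking, window and motif definitions and leaving out each library. The genes named were those of the fixed lists, the 10 regions with the best mean β-catenin rank in all 6 lists, the 5 in no full LEF1 list and those of LEF1 alone. The members and lists were chosen with earlier results of these data known. Inputs and cultures without CHIR were not used here.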

Additional observations from a re-analysis of the deposited data

How the results depend on the processing

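Most WT tests cannot pass the threshold, so only directions and values bear on how these results hold. Of 413 values under alternative settings 2 changed sign. Both concerned the core share of LEF1 minus β-catenin at 1000 peaks in WT, which became 2.00 points with the longer form ASWTCAAAG (exact permutation p = 0.7) and 1.13 points without LEF1 replicate 2. Over 3 genotypes that difference passed the threshold with peaks ranked by fold enrichment, at −6.19 points (exact permutation, adjusted p = 0.0405). The share of β-catenin peaks with LEF1 at 1000, 5000 and 20000 peaks was 39.4%, 19.1% and 8.15% when summits had to lie within 100 bp, 38.6%, 19.6% and 8.98% with ranking by fold, and 37.7%, 18.2% and 8.68% without windows mostly in repeats. At 20000 peaks it was 13.8% with a minimum −log10 q of 5 and 14.6% with full lists. Summit distances became 21, 24.2 and 27.6 bp within the 100 bp limit and 65.0 bp with full lists. The β-catenin regions with LEF1 numbered 2847 with the minimum −log10 q, 6608 with full lists and between 817 and 1384 with a library left out. Listed genes with both factors fell from 60 to 38 when sites had to lie in the gene or within 10000 bp. The 579 regions in all 6 lists became 934 without LEF1 replicate 2, an alternative chosen after seeing the data. The cause of these moves was not tested beyond what each setting removes.

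Leaving out a library gave shares of 38.8% to 44.4%, 19.7% to 22.9% and 8.77% to 10.5% at the 3 sizes, and summit distances of 21.9 to 22.5, 26.5 to 27.8 and 33.0 to 34.8 bp. Overlap within minus between factors ranged from 1.96 to 23.1, 4.48 to 31.9 and 2.52 to 18 points, and for target genes from 3.18 to 23.9, 4.59 to 25.3 and 1.57 to 8.24. LEF1 minus β-catenin in the core share ranged from −7.37 to 1.13, −21.2 to −16.5 and −10.6 to −8.21 in WT.

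Whether replicate numbers pair the libraries was not settled. The same-number correlations of deviations were small, 0.00884, 0.00286 and 0.00353, but each library correlated best with its own number. The highest correlation between different numbers was 0.00164. Tests without a block treat the libraries as unpaired. With the replicate number as a block the shares were 43.3% and 21.6% at 1000 and 5000 peaks and 1401 regions held both factors, and the block cannot give a p below 0.25. Peak lists carry no total depth, so a site without LEF1 is a site without a call. LEF1 libraries had fewer reads at their best summits than β-catenin libraries.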

Other observations

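CdxKO and T/BraKO libraries showed the same order of overlaps as WT. In each of the 6 mutant LEF1 libraries at each list length the β-catenin lists of the genotype held more peaks than the other LEF1 lists, with a mean difference over the 9 libraries of the 3 genotypes of 5.13, 8.23 and 4.57 percentage points. SOX2 lists held 15.2%, 8.78% and 4.66% of WT LEF1 peaks at 1000, 5000 and 20000 peaks, less than they held of β-catenin peaks (24.5%, 25.4% and 15.4%). β-catenin peaks at ranks 1–100 were in SOX2 lists in 80.4% of cases and those at ranks 10001–20000 in 5.45%.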
